A study of Homo sapiens and Mus musculus with 66 samples.

Results

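The genes described here are 8 human genes near chromosome ends that were grouped as telomere position effect genes. Such an effect was not tested here and is not implied for each of them. FRG2, FRG1, FAT1, TLR3, SORBS2 and SLC25A4 lie on the long arm of chromosome 4. TERT lies on the short arm of chromosome 5 and ISG15 on that of chromosome 1. All 8 genes were chosen by name, with no threshold on a measured value. They are 8 of the 20098 protein-coding genes of chromosomes 1 to 22 and X in GENCODE release 44 mapped to hg19. For each of them the share of the gene body inside deposited lists of regions close to the nuclear lamina (NL), the protein meshwork under the nuclear envelope, was measured.

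Telomere position effect is the silencing of a gene by a nearby telomere, whose chromatin can spread inward or fold back onto the gene in a long loop. Such loops were described in human myoblasts and fibroblasts, where they loosen as telomeres shorten and genes such as SORBS2 and TERT change expression, and ISG15 is known to rise as telomeres shorten. The end of 4q is also the locus of facioscapulohumeral muscular dystrophy, in which contraction of a repeat array close to the telomere, or loss of its silencing, is tied to expression of DUX4, and this chromosome end lies at the nuclear periphery in many cell types through binding that involves A-type lamins and CTCF.

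The cTSA-seq method (tyramide signal amplification with a pull-down of chromatin) biotinylates chromatin around lamin-B1 in fixed cells, and the biotinylated fragments are pulled down with streptavidin and sequenced beside an input. K562, a human leukemia cell line, was assayed as 1 unsorted population, and HCT116, a human colorectal cancer cell line, was assayed as an unsorted bulk population, as 1000000, 200000 and 50000 cells, and at 5 sorted stages. The G1, S and G2 cells were sorted by DNA content from asynchronous culture. The 90m G1 and 180m G1 cells were held in mitosis with nocodazole, for 16 h by the labels and longer by the study's methods. These cells were then shaken off, released for 90 or 180 min and sorted for G1 DNA content. The labels name no transgene or knockout in these groups, and all of them were fixed with paraformaldehyde. Both lines come from cancers and neither is a muscle or fibroblast model, and telomere length and expression of the 8 genes were not analysed here.

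Each condition is represented by 1 list of regions called in 100 kb windows. By the labels there were 2 pull-down libraries per condition, and 1 for 1000000 cells, which leaves no replicate to merge. The other lists were taken as merged over replicates by the authors. The lists of cells released from nocodazole, 90m G1 among them, are not labelled as a consensus, unlike the other condition lists. For these cells the merging was inferred from the study's methods. The lists hold no signal and no read counts, so the depth behind a call is unknown, no replicate spread can be given, and no test between conditions can be made. The 4 lists of asynchronous HCT116 cells (bulk, 1000000, 200000 and 50000 cells) show how far lists of like cells differ. In total, 10 lists belong to a condition. A list of TSA-seq regions in K562 cells that the authors derived from published data, and a list of K562 regions depleted by both methods (nonLADs), were also used. Between 190 regions (90m G1) and 663 regions (K562 cTSA-seq) were called on chromosomes 1 to 22 and X. They covered 519 Mb in 90m G1, 613 to 689 Mb in the other HCT116 lists apart from bulk, 821 Mb in bulk and 1224 Mb in K562 cTSA-seq. A gene was counted as called where at least 80% of its body lay in a region. A gene outside a region list is not thereby depleted, since the model of the authors also had an intermediate state.

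Distances are measured to the end of the hg19 chromosome, assembly gap included. The gap beyond the last base of sequence is 110 kb at 4q and 10 kb at each of the 5p and 1p ends.

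FRG2, which encodes a nuclear protein of little-known function, was nearest to its end, at chr4:190945522-190948412 on the minus strand and 0.21 Mb from the 4q end. FRG1, whose product takes part in RNA processing and binds actin, followed at chr4:190862025-190884357 on the plus strand, 0.27 Mb from the end. FAT1, an atypical cadherin, lies at chr4:187508948-187647876 on the minus strand and 3.51 Mb from the end. TLR3, the endosomal receptor for double-stranded RNA, lies at chr4:186990065-187009227 on the plus strand and 4.15 Mb from the end. SORBS2, an adaptor of the actin cytoskeleton at the sarcomere and at cell contacts, had the longest body of the 8 genes, 371 kb at chr4:186506598-186877806 on the minus strand, 4.28 Mb from the end. SLC25A4, the ADP/ATP carrier of heart and muscle mitochondria, lies at chr4:186064420-186071536 on the plus strand and 5.08 Mb from the end. TERT, the catalytic subunit of telomerase, lies at chr5:1253262-1295183 on the minus strand and 1.25 Mb from the 5p end. ISG15, an interferon-induced ubiquitin-like protein, lies at chr1:936518-949920 on the plus strand and 0.94 Mb from the 1p end.

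Each gene body was either wholly inside or wholly outside each list, so the percent inside was 100 or 0 for all 8 genes in all 12 lists. Of the 8 genes, 6 were called in 90m G1, namely FAT1, TLR3, SORBS2, SLC25A4, TERT and ISG15, against 17.1% of all protein-coding genes. The remaining pair, FRG1 and FRG2, nearest to a chromosome end, was called in bulk HCT116 cells instead, where 11% of all genes were called. In K562 cTSA-seq TLR3 and SORBS2 were called (2 of 8), at a background of 11.1%. None of the 8 genes was called in 1000000, 200000 or 50000 HCT116 cells, where 4.84%, 5.01% and 5.86% of all genes were. The count was also 0 of 8 in 180m G1, G1, S and G2, where 5.3%, 4.78%, 5.33% and 4.53% of all genes were called, and in K562 TSA-seq, where 9.22% were. With backgrounds under 10%, a count of 0 of 8 is close to the share of all genes. The K562 nonLADs held ISG15 alone of the 8 genes, beside 54.6% of all genes. That list held 0 of the 32 protein-coding genes within 6 Mb of the 4q end. Its nearest region was at least 108764 kb from each of the 6 genes on 4q. The 8 genes are not independent, since they fall into 3 neighbourhoods whose genes share windows and regions.

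**Figure D1:**
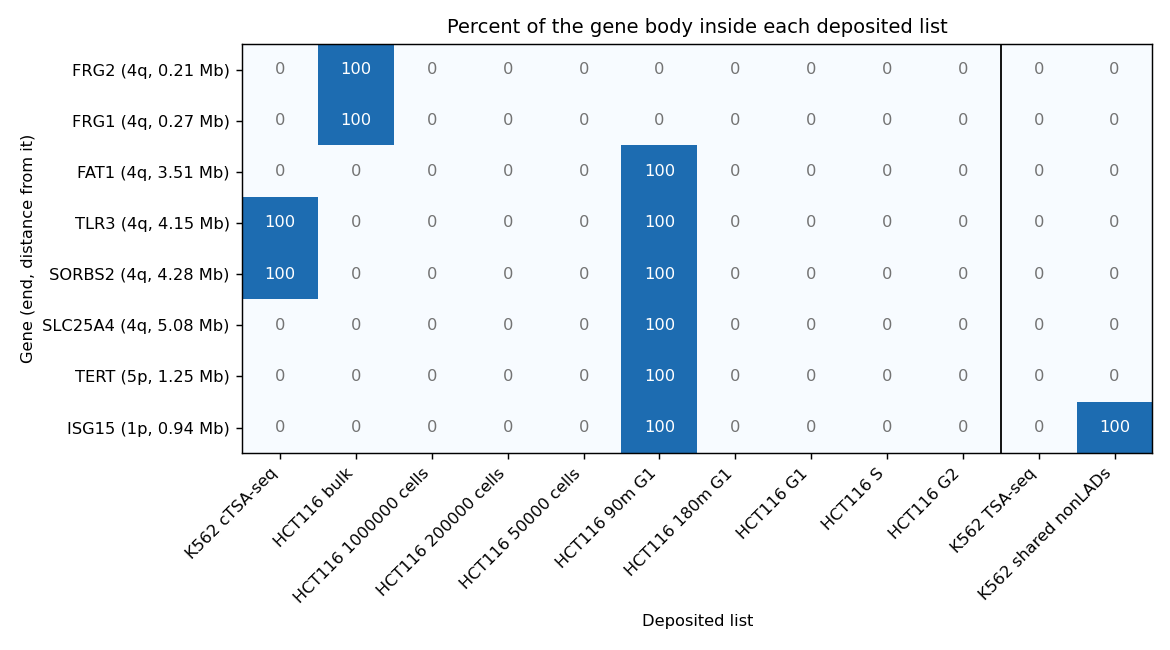
Percent of each gene body inside each of the 12 deposited lists (columns), with the genes in rows labelled by chromosome end and distance from it in Mb. FAT1, TLR3, SORBS2, SLC25A4, TERT and ISG15 are at 100 in 90m G1, FRG1 and FRG2 in bulk HCT116 cells, TLR3 and SORBS2 in K562 cTSA-seq and ISG15 in the nonLADs, and all other cells are at 0.

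Along 4q, the 90m G1 calls covered the 4 genes farther from the telomere and not the pair next to it. FAT1, TLR3, SORBS2 and SLC25A4 lay in the same region of 8.1 Mb, chr4:182000001-190100000, and 2452 kb of it lay between FAT1 and its border on the side of the telomere. SLC25A4, the farthest of the 4 genes from the telomere, was 4064 kb from the other border. After a gap of 200 kb a second region, chr4:190300001-190800000, was called, which ended 62 kb before FRG1 and 146 kb before FRG2. Only the last, partial window of the chromosome was called again in 90m G1, and it consists entirely of an assembly gap, so that no read can lie in it. FRG1 and FRG2 thus lay in a stretch of 300 kb without calls in early G1.

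The same border at 190.8 Mb was found in 180m G1, S, G2, 50000 HCT116 cells and K562 cTSA-seq, in which the nearest region also ended 62 kb from FRG1. In G1, 1000000 and 200000 cells it ended 1 window earlier, 162 kb from FRG1 and 246 kb from FRG2. In bulk HCT116 cells the region chr4:190100001-191100000 continued past this border and held FRG1 and FRG2, together with DUX4, the germline transcription factor encoded in the repeat array 0.15 Mb from the end. Because the pair was called in 1 of the 4 lists of asynchronous HCT116 cells and in none of the other 3, the call is within the difference between lists of like cells. Over all protein-coding genes, the bulk list shared 80.9% to 84.9% of the genes called in each of the other 3, but only 35.7% to 45.3% of its own. Of the 2206 genes called in bulk cells, 307 (13.9%) were called in no other HCT116 list, and FRG1 and FRG2 are among them.

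**Figure D2:**
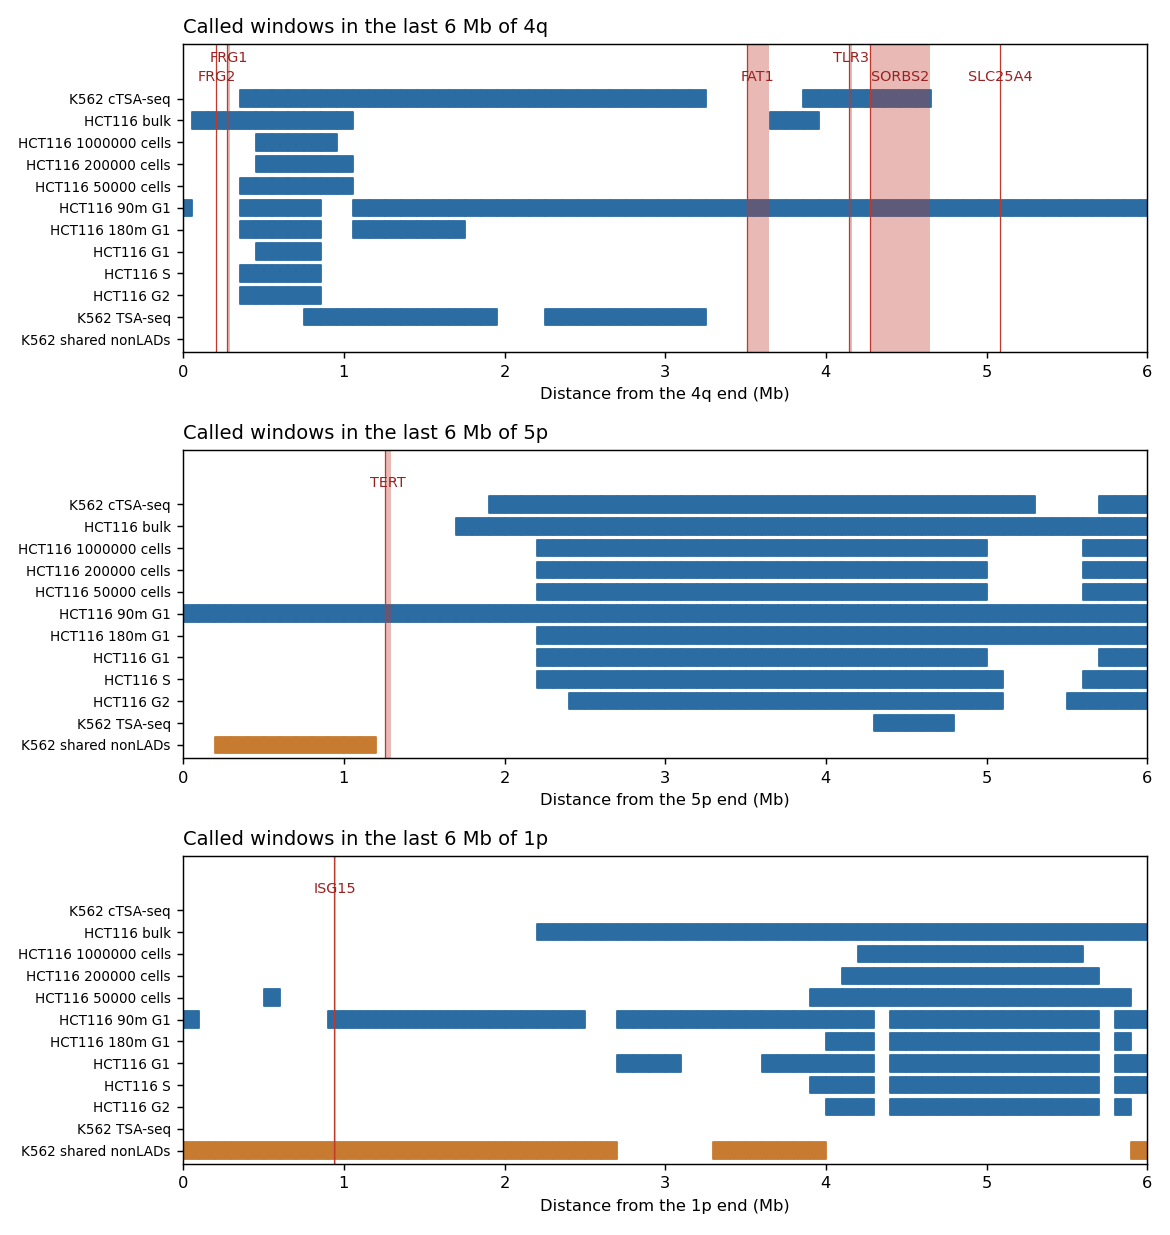
Called windows (blue, region lists, orange, nonLADs) in the last 6 Mb of 4q, 5p and 1p, by distance from the chromosome end in Mb, with 1 line per list and the gene bodies as red bands. On 4q the 90m G1 region covers FAT1, TLR3, SORBS2 and SLC25A4, and in 90m G1 the calls stop short of FRG1 and FRG2, which bulk HCT116 cells include.

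FRG2 has a near-identical copy, FRG2B, and a less similar copy, FRG2C, elsewhere in the genome. They are shown because reads of the stretches they share with FRG2 can be confused. The lines below give the first 60 bases of the longest coding stretch of FRG2 in hg19, at chr4:190947162-190947221 on the minus strand, beside the best matches in FRG2B, chr10:135439049-135439108 on the minus strand, and FRG2C, chr3:75714678-75714737 on the plus strand. Capitals mark bases that differ from FRG2.
FRG2: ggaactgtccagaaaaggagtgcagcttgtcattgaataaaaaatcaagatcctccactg
FRG2B: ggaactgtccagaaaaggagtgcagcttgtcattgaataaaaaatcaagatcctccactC
FRG2C: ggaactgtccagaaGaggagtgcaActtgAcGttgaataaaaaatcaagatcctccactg
FRG2B had 1 difference from FRG2 in these 60 bases and FRG2C had 4. Over the whole FRG2 body, 89.8% of its 31-base words (a length chosen here and not the read length) were also present in FRG2B, near the 10q end, and 29.2% in FRG2C. Of the 31-base words of FRG2, 91.2% occurred more than once in hg19, and of those of FRG1 34.7%. Of the FRG1 words only 0.38% were present in the last 500 kb of 10q, which holds FRG2B. The share of words that occurred more than once in hg19 was lower than in FRG1 and FRG2 in the other genes. It was 6.12% in FAT1, 6.97% in SORBS2, 11.2% in TLR3, 2.6% in SLC25A4, 18.6% in TERT and 20.6% in ISG15. A read that lies within repeated sequence has no single best place, so reads of FRG2 and its copies cannot be told apart there.

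By window, the share of repeated words was 37.3%, 66% and 85.7% in the 3 windows that follow the border at 190.8 Mb. In the other windows of the last 6 Mb of 4q it was at most 23.6%, with a median of 12.7%. The window at 85.7% is 55.7% assembly gap, so its share describes only the sequence present. In 90m G1 none of these 3 windows was called, whereas bulk HCT116 cells had all 3. Across the last 6 Mb of the 3 arms, 90m G1 called 3 of the 13 windows with at least 50% repeated words and 160 of the other 167, and bulk cells called 3 of 13 and 91 of 167. The single such window of 5p was called in 90m G1, as were 2 of the 10 on 1p. The part of repeated sequence in the missing calls at FRG1 and FRG2 was not tested.

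**Figure D3:**
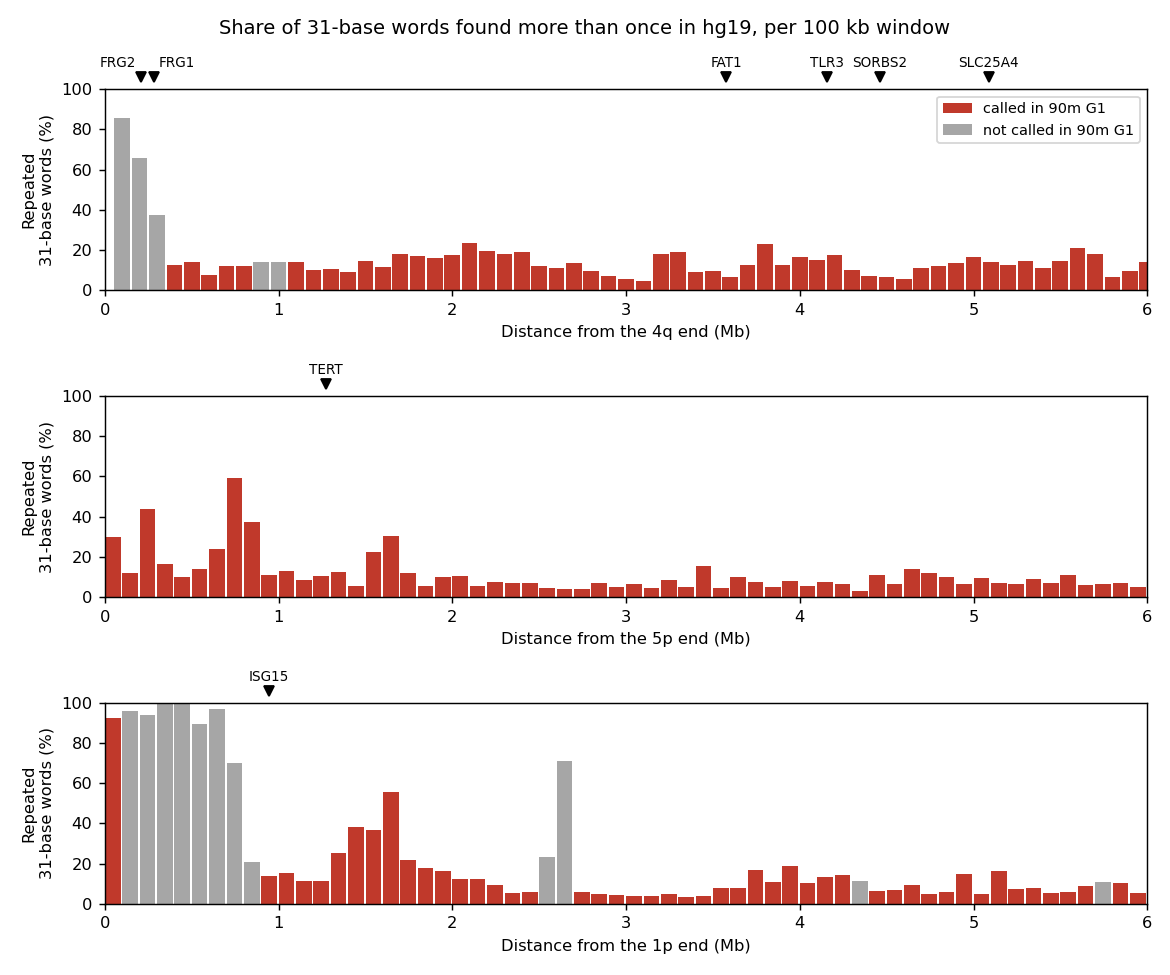
Percent of 31-base words that occur more than once in hg19, per 100 kb window, by distance from the 4q, 5p and 1p ends in Mb, with windows called in 90m G1 in red, others in grey and the gene positions as triangles. FRG1 and FRG2 lie in windows of 37.3% and 66% without a call, and the other genes in called windows.

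SORBS2 and TLR3 were the genes called in both cell lines. In K562 cells a region of 0.8 Mb, chr4:186500001-187300000, held both, and SORBS2 began 6.6 kb inside its border. FAT1 lay 209 kb beyond this region on the side of the telomere, and SLC25A4 428 kb beyond it on the side of the centromere. Neither SORBS2 nor TLR3 was in the K562 TSA-seq list, in which the nearest region was 1022 kb from SORBS2 and 891 kb from TLR3. In HCT116 cells other than 90m G1 and bulk, the nearest region was 3007 to 3222 kb from SORBS2, except in 180m G1, where it was 2522 kb away. TLR3 was 2391 kb from a region in 180m G1 and 3091 to 3291 kb in the others.

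FAT1 came closest to a call in bulk HCT116 cells, in which a region of 0.3 Mb, chr4:187200001-187500000, ended 8.95 kb before its body. MTNR1A, which encodes a melatonin receptor, was the called neighbour on that border. In the same list TLR3 was 191 kb, SORBS2 322 kb and SLC25A4 1128 kb from the nearest region. In 180m G1 the nearest region to FAT1 was 1752 kb away, and in G1, S and G2 2652 kb. SLC25A4 lay 2364 kb from a region in 180m G1 and 2564 to 2864 kb in G1, S, G2 and the 3 cell numbers. FAT1, TLR3, SORBS2 and SLC25A4 were thus inside a region in 90m G1 and at least 1752 kb from one at each later stage.

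TERT was inside a region of 11.6 Mb in 90m G1 that began at the first base of chromosome 5. It was in no other list. From 180m G1 on, the nearest region began 905 kb farther from the end than TERT, in 180m G1, G1 and S as well as in the 3 cell numbers, and 1105 kb in G2. In bulk HCT116 cells the distance was 405 kb and in K562 cTSA-seq 605 kb, and it was 3005 kb in K562 TSA-seq. The K562 nonLAD chr5:200001-1200000 ended 53.3 kb short of TERT, so that TERT was neither in a K562 region nor in a nonLAD.

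ISG15 was inside a region of 1.6 Mb in 90m G1, chr1:900001-2500000, and began 36.5 kb from its border on the side of the telomere. In K562 cells it lay in a nonLAD of 2.7 Mb that began at the first base of chromosome 1. The nearest K562 cTSA-seq region was 33350 kb away and the nearest K562 TSA-seq region 48250 kb. In HCT116 cells the distance was 1250 kb in bulk cells, 1750 kb in G1, 2950 kb in S and 3050 kb in both 180m G1 and G2. It was 337 kb in 50000 cells, owing to 1 window at chr1:500001-600000, against 3250 kb in 1000000 and 3150 kb in 200000 cells. The 50000-cell window was in none of the other lists of asynchronous cells.

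**Figure D4:**
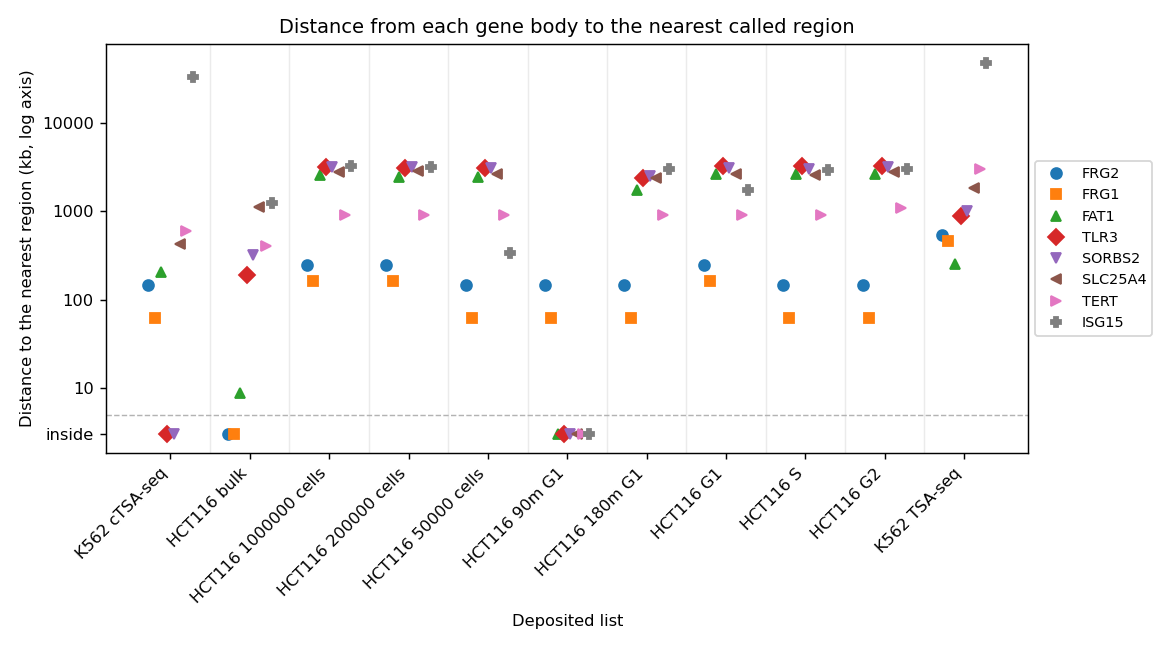
Distance in kb (log axis, with genes inside a region drawn at the bottom) from each gene body to the nearest region, for the 10 condition lists and K562 TSA-seq. FRG1 and FRG2 are 62 kb and 146 kb from a region in 90m G1, in which the other genes are inside one, and FAT1 is 8.95 kb from one in bulk HCT116 cells.

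Most neighbours of the 8 genes were also called in 90m G1. Among protein-coding genes within 6 Mb of the 4q end, 29 of 32 were called in 90m G1, and the 3 that were not were DUX4, FRG2 and FRG1. The next called gene inward was TRIML1, 2.09 Mb from the end. Bulk HCT116 cells had 5 of the 32 genes, K562 cTSA-seq had 11 and the other lists 0. At the 5p end all 31 genes were called in 90m G1, from PLEKHG4B, the nearest to the end, onward. Bulk cells had 7 of them, beginning with MRPL36 next to the uncalled LPCAT1, 180m G1 had 4, K562 cTSA-seq 3, K562 TSA-seq 0 and every other region list 2. The K562 nonLADs held 16 of the 31. At the 1p end 71 of 80 genes were called in 90m G1, including OR4F5, the olfactory receptor gene nearest to the end. The genes from AL627309.1 to NOC2L had 0% of their bodies inside and KLHL17 21.4%, before the calls began with PLEKHN1 and, shortly after it, ISG15. A second interruption held PRXL2B and MMEL1 at 0% and TTC34 at 12.2%, and ACTRT2 followed as called. Bulk cells had 25 of the 80 genes, beginning with MORN1 after SKI at 50.3%, G1 had 9, and the nonLADs held 77.

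Over the 41 chromosome ends with genes (the short arms of the 5 acrocentric chromosomes were left out), the median share of genes within 5 Mb called in 90m G1 was 87.5%, with 16 ends at 100% and 6 at 0%. The 4q end was at that median with 87.5%, the 1p end had 88.6%, and the 5p end was among those at 100%. In K562 cTSA-seq the 4q end had 45.8% of its genes called, the second highest of the 41 ends, whose median was 0% and highest value 70%. Within 5 Mb of any end, 1269 of 2516 genes (50.4%, 95% Wilson interval 48.5 to 52.4%) were called in 90m G1 and 165 (6.56%, 5.66 to 7.59%) in G1. The intervals cover counting over genes only, and neighbouring genes share windows. By distance, the share called in 90m G1 was 51.3% within 1 Mb, where FRG1, FRG2 and ISG15 lie. From 1 to 2 Mb, where TERT lies, it was 61.2%. It was 42.8% from 3 to 4 Mb, where FAT1 lies, and 42.6% from 4 to 5 Mb, where TLR3 and SORBS2 lie. From 5 to 6 Mb, where SLC25A4 lies, it was 34.1%. It was 5.78% among genes over 20 Mb from an end. FAT1, TLR3, SORBS2, SLC25A4, TERT and ISG15 were thus called in 90m G1 together with many genes at like distances. FRG1 and FRG2 were not called, and neither were many other genes within 1 Mb of an end. These shares pool ends with every gene called and ends with none. At the 4q end itself 29 of 32 genes within 6 Mb were called, and FRG1, FRG2 and DUX4 were the exceptions.

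**Figure D5:**
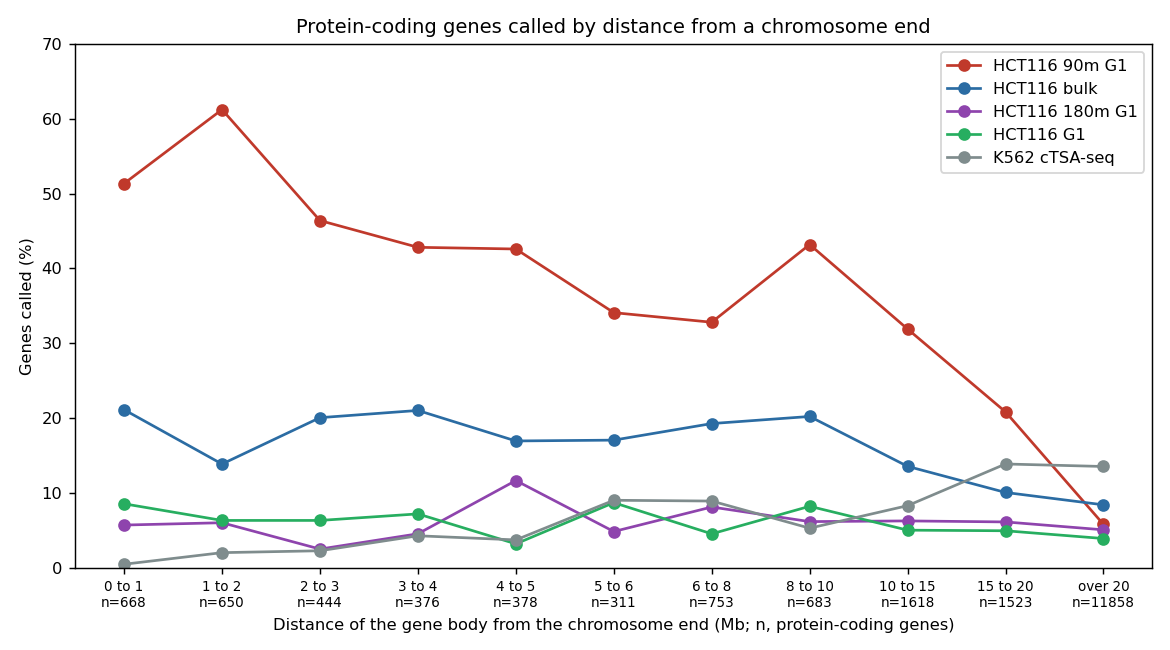
Percent of protein-coding genes called, by distance of the gene body from the chromosome end in Mb, for 5 lists, with the number of genes under each bin. The 90m G1 share is 61.2% from 1 to 2 Mb and 5.78% beyond 20 Mb, and the G1 share stays at or under 8.68% in all bins.

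Loss of the call after 90m G1 was also common. Of the 3435 genes called in 90m G1, 2848 (82.9%) were called in none of 180m G1, G1, S and G2, and within 5 Mb of an end the number was 1081 of 1269 (85.2%). For the genes described here it was 6 of 6. FAT1 and SLC25A4, called in 90m G1 alone among the 10 condition lists, shared this pattern over the lists with 2073 of 20052 genes more than 10 Mb away or on other chromosomes (10.3%), TERT with 2067 and ISG15 with 2017. Of the genes like FAT1, 54.4% lay within 10 Mb of an end, against 21% of all genes compared. TLR3 and SORBS2, called in 90m G1 and K562 cTSA-seq, shared their pattern with 51 genes (0.25%), and FRG1 and FRG2 with 242 (1.21%). With ties in symbol order, the first genes of identical pattern were AAMP and ABCA2 for FAT1, SLC25A4, TERT and ISG15, ADAM23 and ARHGAP32 for TLR3 and SORBS2, and ABAT and AC005609.1 for FRG1 and FRG2.

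Among other genes known for telomere position effects, with copies of FRG2 (6 in all), DUX4, FRG2B and FRG2C were called in bulk HCT116 cells, and FRG2C, 75.7 Mb from its chromosome end, also in the 3 cell numbers. BET1L, a Golgi SNARE protein 0.17 Mb from the 11p end, was called in 90m G1. DSP (desmoplakin) and C1S (a complement protease), at 7.54 and 7.1 Mb from their ends, were called in none of the 10 condition lists, and C1S, BET1L and FRG2B lay in nonLADs. Of 12 genes for shelterin, which caps telomeres, and for telomerase and its assembly, 90m G1 called DKC1 and NHP2, bulk cells TERF2IP and the K562 TSA-seq list POT1, and 7 lay in nonLADs. DKC1 and NHP2 encode proteins of the telomerase particle and lie 1.26 and 3.33 Mb from an end. Of 5 genes whose products act on 4q chromatin or form the lamina, only LMNB1, which encodes lamin-B1 and lies 54.7 Mb from the end, was called in a condition list, in 90m G1, and SMCHD1, DNMT3B, CTCF and LMNA lay in nonLADs. Here 1 of 6, 2 of 12 and 1 of 5 genes were called in 90m G1, beside a background of 17.1%. In bulk cells the counts were 3 of 6, 1 of 12 and 0 of 5, beside 11% of all genes. The nonLADs held 3 of 6, 7 of 12 and 4 of 5, beside 54.6% of all genes.

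The promoters of the 8 genes were compared in the RefSeq promoter sequences (GRCh38.p14, 250 bases before and 50 after each start), in which all 8 were found, with 8 promoters for SORBS2 and 2 for FAT1. The motif of GAAA, any 2 bases and GAAA again, on either strand, a core shared by interferon-stimulated response elements, was found in 2 of the 16 promoters of these genes, those of ISG15 and TLR3, and in 3.57% of all 35116 promoters. Counted by gene, it was found in 2 of 8 and in 4.38% of the 27305 genes of the table. Since ISG15 is itself interferon-induced, a match there was foreseeable. These counts are a description of the 8 genes, and no enrichment was tested. The lines show 60 bases around it, with the matches in capitals. By exact match to hg19 they lie on the plus strand at chr1:948742-948801 for ISG15 and at chr4:186990265-186990324 for TLR3, in which the match is on the other strand and spans the start.
ISG15: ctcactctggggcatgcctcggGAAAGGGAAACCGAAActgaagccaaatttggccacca
TLR3: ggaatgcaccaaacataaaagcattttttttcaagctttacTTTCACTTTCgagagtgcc
The ISG15 sequence holds 2 overlapping matches, upstream of the RefSeq start at position 948877 and inside the longer GENCODE gene body. Both promoters lay in windows called in 90m G1, as did those of FAT1, SORBS2, SLC25A4 and TERT without a match. The number of CG dinucleotides also varied among the called genes, from 2 to 8 in the SORBS2 promoters and 5 in TLR3 to 20 in ISG15, 36 in SLC25A4 and TERT and 40 and 41 in FAT1, around a median of 14 over all promoters. FRG1 had 30 and FRG2 9. The genes called in 90m G1 thus had both CpG-poor and CpG-rich promoters, at 100 kb windows that do not resolve a promoter from its surroundings.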

How the data were processed

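Reads were mapped by the authors with Bowtie 2.3.2 (default settings, hg19) and deduplicated, and bedtools 2.26.0 gave read counts per window. Regions are the enriched state of a Hidden Markov Model with 3 states, run on z-scores of the log2 pull-down to input ratio. By the study's methods they intersected the calls of replicates, and they describe the sorted stages as called in the way used for K562. The deposited lists give region starts and ends in bp, with no signal or count. A list of regions shared by both K562 methods and a list specific to cTSA-seq were not used.

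Gene bodies were those of GENCODE release 44 on hg19, and percent inside each list was computed in Python 3.11.15 with numpy 2.4.6 and pandas 2.3.3. A gene was called at 80% or more. The procedure was first tested on intervals of known overlap. Words of 31 bases were counted in the hg19 sequence with numba 0.67.0 and pysam 0.24.0. The sequence of the chromosome ends is not reported here. Figures were drawn with matplotlib 3.10.9.

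The 8 genes, the further gene lists and the alternatives were chosen with earlier results of these data known. Named besides the 8 genes were the protein-coding genes nearest to the 3 ends or next to a border between called and uncalled windows in 90m G1 and bulk HCT116 cells, members of 3 lists (other telomere position effect genes and copies, shelterin and telomerase, regulators of 4q), and the first 2 genes of identical pattern. The split of windows at 50% repeated words was chosen after the data were examined. The alternatives were a 50% share, any overlap, the window of the gene start, regions of at least 200 kb, gaps of up to 100 kb joined, 50 kb flanks, and genes within 2 and 10 Mb of an end.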

Additional observations from a re-analysis of the deposited data

How the results depend on the processing

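The counts of the 8 genes called in each of the 12 lists were the same under the 6 alternatives tried for each list (72 of 72), which is limited by the fact that every body was wholly inside or outside. In 90m G1 the share of genes called was 56.2% within 2 Mb of an end and 45% within 10 Mb, against 50.4% within 5 Mb, and all 3 stayed above the G1 shares of 7.44%, 6.62% and 6.56%. No paired analysis was possible because no list was given per replicate, and for the same reason no replicate could be left out. Depth is unknown, and 100 kb windows limit every border. The part of repeated sequence in the calls at FRG1 and FRG2 was not tested.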
